A study of Mus musculus with 3 samples.

Results

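Chloride cotransporters set the chloride concentration inside a neuron, and 7 genes of this system, of 31053 genes in the count tables, were followed in developing somatostatin neurons of the mouse neocortex. They were chosen by name as 3 cotransporters, Slc12a2, Slc12a5 and Slc12a7, and 4 kinases, Wnk1, Wnk2, Wnk3 and Stk39. The cells were GFP+ and DAPI-negative neurons sorted by FACS from Sst-Cre;RCE mice, in which Cre driven by Sst switches on a GFP reporter for good, so that a cell stays labelled after Sst has gone. Neocortex was taken at E16.5 (6 animals pooled), P1 (3 animals pooled) and P5 (3 animals pooled), and each pool gave 1 10x Genomics library. All 3 libraries carried the same Cre and reporter, and there was neither a second library at any age nor a group without the alleles. No stage had a replicate library, so the stages could not be tested against each other, and every interval below covers counting error only, not the spread between animals.

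NKCC1, the product of Slc12a2, carries chloride into cells together with sodium and potassium, whereas KCC2, the neuronal potassium-chloride cotransporter made by Slc12a5, carries it out. Immature neurons are known to hold more chloride, so that GABA can depolarise them, and the maturing cortex shifts from the first transporter towards the second. WNK kinases sense chloride and act through SPAK, the kinase made by Stk39, and its relative OSR1, made by Oxsr1, to activate NKCC1 and restrain the KCC transporters by phosphorylation. This background concerns transporter proteins and their phosphorylation, neither of which was measured here.

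The libraries held 12324 cell barcodes, the number the submitters give, and 9433 were kept as having more than 700 genes and under 10% of UMIs (unique molecular identifiers, 1 per captured RNA molecule) from mitochondrial genes. The E16.5 library kept 3952 of 4478 barcodes, the P1 library 2501 of 4440 and the P5 library 2980 of 3406, with median UMIs per cell of 5577, 3293 and 3936 and totals of 24632146, 10964193 and 12886663 UMIs. Between 1 and 6 cell barcodes were shared by any pair of libraries. Cell Ranger 3.0.2 was used for P1 and 3.1.0 for E16.5 and P5, P1 and P5 cells passed through Percoll, and P5 tissue also met trypsin, so stage, library and preparation cannot be told apart. The kept cells carried the 7 markers of inhibitory neurons from the medial ganglionic eminence (Gad1, Gad2, Slc32a1, Lhx6, Sst, Maf and Sox6) at a summed 5176, 5873 and 4199 CPM (UMIs of a gene per 1e6 UMIs counted), and markers of astrocytes, oligodendrocytes, microglia and vessels at no more than 11.0 CPM for any of these lists. The 4 markers of immature migrating neurons, Igfbpl1, Cxcr4, Sox11 and Dcx, summed to 4958, 3077 and 1060 CPM.

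Within each library the cells were read through 3 gates. Nos1 cells held at least 1 UMI of Nos1, which marks the long-range projecting (LRP) somatostatin neurons, with 67 of them in the E16.5 library, 434 in the P1 library and 547 in the P5 library. Sst-high cells held at least 5 Sst UMIs and none of Nos1, and numbered 1920, 757 and 896. Sst-0 Lhx6 cells held Lhx6, the transcription factor of this lineage, but 0 Sst UMIs, and numbered 776, 491 and 559. The gates are thresholds and not cell types: of the Nos1 cells 38, 126 and 81 rested on exactly 1 Nos1 UMI, and 2, 26 and 14 cells of the Sst-0 gate were also Nos1 cells. Since Nos1 sets the gate, the LRP label was read from Chodl and Npy alone, which summed to 12408, 24963 and 35019 CPM in the Nos1 cells and to 2417, 2156 and 1405 CPM in the Sst-high cells. The Nos1 gate at E16.5 also held 581 CPM of the 5 excitatory neuron markers, against 7.15 CPM in Sst-high cells, and 13 of its 67 cells belonged to the 39 cells with at least 3 excitatory marker UMIs and no Lhx6. At P1 the same markers stood at 154 CPM in Nos1 cells and at P5 at 6.11 CPM.

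Slc12a5 (ENSMUSG00000017740) lies on the plus strand of chromosome 2 at 164960802-164999731 of GRCm38 in GENCODE M21, and RefSeq gives it a pair of promoter windows whose starts are 7142 bases apart. The sequences are shown because Slc12a5 is the member with the largest differences of P1 and of P5 from E16.5 on the log2(CPM + 1) scale. A count taken at the 3′ end of the RNA also cannot say which of these starts was used. Each is the plus strand of the RefSeq GRCm38.p6 window, which holds 250 bases before the start, cut off at the first annotated exon base, with motif matches in capitals.
Slc12a5 upstream window, chr2:164960596-164960801: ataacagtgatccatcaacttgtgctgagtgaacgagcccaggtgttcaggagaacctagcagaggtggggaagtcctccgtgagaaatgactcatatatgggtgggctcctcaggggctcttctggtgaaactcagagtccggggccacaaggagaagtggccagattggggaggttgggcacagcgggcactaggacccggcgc
Slc12a5 downstream window, chr2:164967738-164967982: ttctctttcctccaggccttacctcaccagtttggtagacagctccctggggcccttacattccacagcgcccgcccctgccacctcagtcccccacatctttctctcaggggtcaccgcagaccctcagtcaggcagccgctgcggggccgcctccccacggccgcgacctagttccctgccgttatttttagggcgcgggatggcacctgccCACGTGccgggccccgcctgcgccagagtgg
The downstream window held an E-box, CACGTG, whose first base lies 36 bases before the start, and the upstream window held none, with both strands searched. Of 32851 RefSeq windows of the same length, 6.02% held this E-box. A match is a run of letters and not a measured binding site.

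Slc12a5 was the cotransporter gene with the highest level and the widest range in CPM. Over all kept cells it stood at 66.9 CPM at E16.5 (95% Poisson interval 63.8 to 70.3, 1649 UMIs), 165 CPM at P1 (158 to 173, 1812 UMIs) and 248 CPM at P5 (240 to 257, 3198 UMIs). The 3 libraries did not overlap in their counting intervals, and each later one was higher. P1 was 2.47-fold E16.5 (2.31 to 2.64), P5 was 1.5-fold P1 (1.42 to 1.59) and P5 was 3.71-fold E16.5 (3.49 to 3.94). On the log2(CPM + 1) scale the differences were 1.29, 0.58 and 1.87, against medians over all genes tested of 0.18, -0.07 and 0.09. The median gene thus stood 0.18 higher in P1 than in E16.5 on this scale.

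Slc12a2 (chromosome 18, 57878678-57946821, plus strand) did not move with it. Its level was 18.7 CPM at E16.5 (17.0 to 20.5, 461 UMIs), 23.0 CPM at P1 (20.2 to 26.0, 252 UMIs) and 19.6 CPM at P5 (17.3 to 22.2, 253 UMIs). P5 over E16.5 was 1.05-fold (0.896 to 1.23), an interval that includes no difference and leaves room for one of up to 1.23-fold. P1 over E16.5 was 1.23-fold (1.05 to 1.44), a log2 difference of 0.28 against the 0.18 of the median gene, and with cells thinned to equal depth it was -0.000861. Slc12a7, which encodes the KCC4 transporter and lies on chromosome 13 at 73733094-73816754, was near the limit of detection, with 18, 13 and 2 UMIs in the 3 libraries, or 0.731, 1.19 and 0.155 CPM. None of its 2 UMIs at P5 came from Sst-high or Sst-0 Lhx6 cells, whose totals allow up to 0.604 and 1.52 CPM at 3 counts.

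Of the kinases, Stk39 (chromosome 2, 68210445-68472268, minus strand) was the one with a step of its own. It stood at 18.4 CPM in E16.5 cells (16.7 to 20.2), 31.9 CPM in P1 cells (28.7 to 35.4) and 50.3 CPM in P5 cells (46.5 to 54.3). The 3 intervals were again separate and P5 was 2.73-fold E16.5 (2.42 to 3.09). The WNK genes were abundant at every stage and stayed within a narrow band. Wnk1 (chromosome 6, 119923969-120038672, minus strand) stood at 107, 140 and 124 CPM, and Wnk2 (chromosome 13, 49036303-49148014, minus strand) at 71.4, 92.9 and 93.5 CPM. Wnk3 (chromosome X, 151198078-151320152, plus strand) was the member that stood lower after birth, at 75.3, 63.8 and 64.6 CPM, and P5 was 0.859-fold E16.5 (0.790 to 0.932). An annotated antisense gene, A230072E10Rik, overlaps Wnk3 and was counted separately with 47, 18 and 46 UMIs. How strand entered the counting is not given in the sources used here, so reads of the overlap cannot be told apart.

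All 7 genes passed the minimum of 10 UMIs over both libraries in each stage comparison, and the share of all genes past 2-fold gives the background. Between P1 and E16.5, 1 of 7 was past 2-fold higher (Slc12a5), where 10.6% of 14837 genes were, and 0 of 7 were past 2-fold lower, where 2.91% were. Between P5 and P1 none of the 7 was past 2-fold either way, where 7.64% of genes were higher and 9.03% lower. These calls were made on the log2(CPM + 1) scale, which shrinks low genes. As a plain ratio of CPM, Slc12a7 at P5 was 0.131 times P1 (0.0143 to 0.578) and 0.212 times E16.5 (0.0239 to 0.887), on its 2 UMIs at P5. Between P5 and E16.5, 2 of 7 were past 2-fold higher (Slc12a5 and Stk39), where 16.9% of 15285 genes were, and 0 of 7 lower, where 10.8% were. The median log2 difference of the 7 was 0.38, 0.01 and 0.21 in the 3 comparisons. Slc12a5 stood at the 94.4th percentile of all genes for P1 over E16.5 and at the 94.6th for P5 over E16.5, and Stk39 at the 89.8th for P5 over E16.5.

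**Figure D1:**
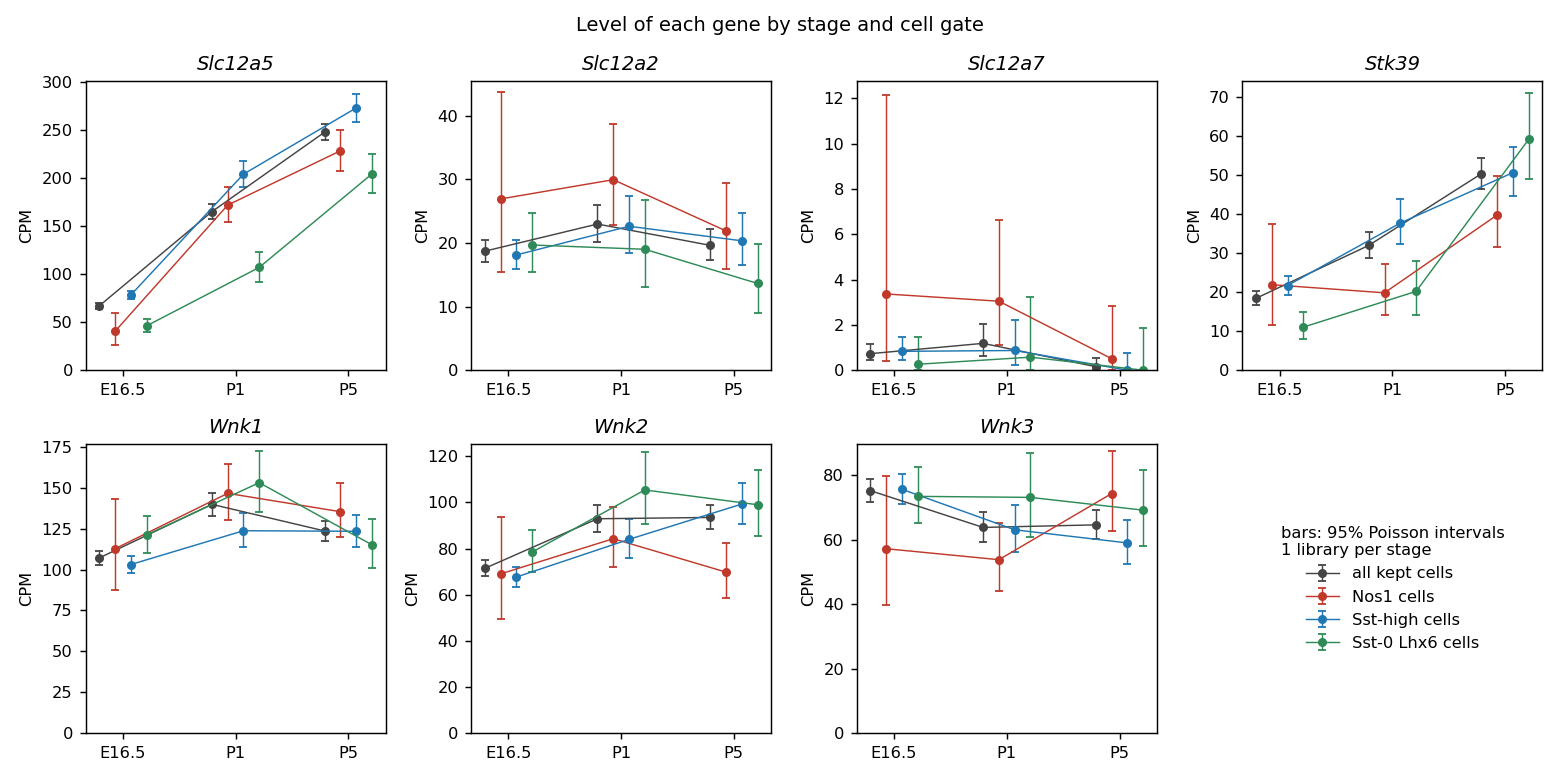
CPM (vertical axes, each from 0) of the 7 genes at E16.5, P1 and P5, 1 library each, in all kept cells and 3 gates, where points are summed UMIs scaled to CPM and bars are 95% Poisson intervals. Slc12a5 is higher at each later stage in all 4 groups, to between 205 and 273 CPM at P5, while Slc12a2 stays between 13.6 and 30.0 CPM.

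The order of the 7 genes within a library also differed. Each UMI counts 1 molecule at its 3′ end, so the levels were not divided by length, although capture may differ between genes. At E16.5 the order was Wnk1, Wnk3, Wnk2, Slc12a5, Slc12a2, Stk39 and Slc12a7, in which Wnk3 and Wnk2, Wnk2 and Slc12a5, and Slc12a2 and Stk39 had overlapping intervals. At P1 and at P5 the order was Slc12a5, Wnk1, Wnk2, Wnk3, Stk39, Slc12a2 and Slc12a7, with no overlap between neighbours. Over all kept cells Slc12a5 thus stood 4th of 7 before birth and 1st after it. Its place at P1 depended on depth and gate. In thinned cells (20 draws) Wnk1 stood at 148 CPM at P1 and Slc12a5 at 142 CPM. In P1 Sst-0 Lhx6 cells they stood at 153 (135 to 173) and 107 CPM (92.3 to 124). Slc12a5 was above Wnk1 in P1 Nos1 and Sst-high cells. At P5 it was above Wnk1 in thinned cells, at 243 against 125 CPM, and in each gate. In E16.5 Sst-high cells Slc12a5, at 78.3 CPM, was above Wnk3 (75.7, overlapping) and Wnk2 (67.6).

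The ratio of Slc12a5 to Slc12a2 UMIs compares both transporters within the same cells and needs no scaling between libraries, though its absolute value depends on how well each RNA is captured. Over all kept cells the E16.5 library had 3.58 (exact 95% interval 3.22 to 3.97), the P1 library 7.19 (6.30 to 8.24) and the P5 library 12.6 (11.1 to 14.4). The ratio at P5 was 3.53 times that at E16.5 (3.00 to 4.17). In Nos1 cells the ratio was 1.5 at E16.5 (0.764 to 3.02, from 24 and 16 UMIs), 5.75 at P1 (4.35 to 7.71) and 10.4 at P5 (7.63 to 14.6). In Sst-high cells it was 4.32 (3.77 to 4.96), 9.03 (7.37 to 11.2) and 13.4 (11.0 to 16.6). In Sst-0 Lhx6 cells it was 2.35 (1.78 to 3.12), 5.64 (3.88 to 8.43) and 15.0 (10.2 to 23.0). Each gate thus stood in the order E16.5, P1, P5, and the lowest ratio of all belonged to the Nos1 cells of E16.5, whose interval reached below 1.

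The ratios in Nos1 and in Sst-0 Lhx6 cells lay nearer that in Sst-high cells at P5 than at E16.5, although a gate may not hold the same populations at each stage. In both comparisons the E16.5 and P5 intervals given next overlap, and a change between stages was not tested. The ratio in Nos1 cells was 0.347 times that in Sst-high cells at E16.5 (0.182 to 0.663), 0.636 times at P1 (0.452 to 0.897) and 0.777 times at P5 (0.535 to 1.13). The ratio in Sst-0 Lhx6 cells was 0.543 times that in Sst-high cells at E16.5 (0.402 to 0.735), 0.624 times at P1 (0.409 to 0.952) and 1.12 times at P5 (0.720 to 1.73). The P5 intervals include 1 in both cases, and they also include a ratio 0.720 times as high in the Sst-0 cells. With the cells of the excitatory, Meis2 and non-neuronal gates left out, the ratio in the remaining 54 Nos1 cells at E16.5 was 1.42, and in the 49 Nos1 cells with a Lhx6 UMI it was 1.36. Other settings moved this ratio further, from 0.867 without the 5% of cells with most UMIs to 2.12 with at least 2 Nos1 UMIs. Thinned to 2000 UMIs it was 1.03 over 20 draws, with single draws from 0 to 5.

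**Figure D2:**
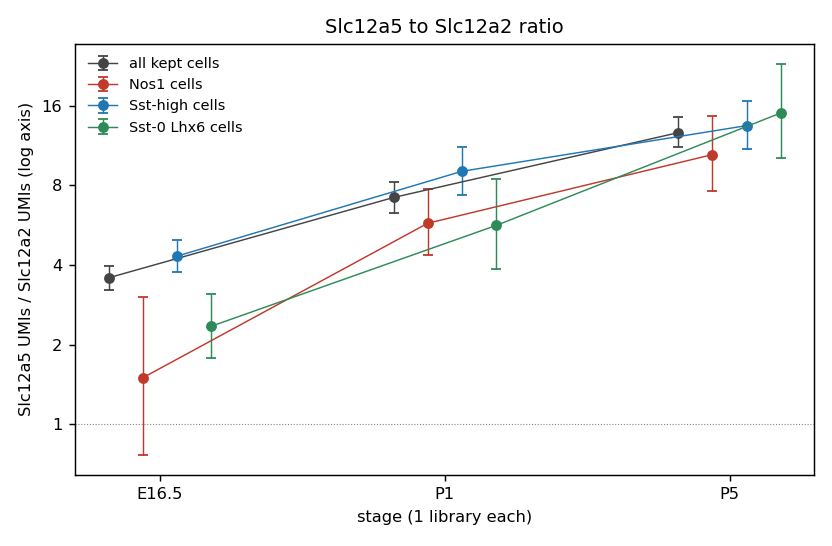
Ratio of Slc12a5 to Slc12a2 UMIs (vertical log axis) at E16.5, P1 and P5 in all kept cells and 3 gates, with exact 95% intervals from the counts and 1 library per stage. The ratios run from 1.5 to 4.32 in the gates at E16.5 and from 10.4 to 15.0 at P5.

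The depth of the cells bore on the value of the ratio but not on its order by stage. With each cell thinned at random to 2000 UMIs, leaving 3615, 1828 and 2443 cells, the ratio over all kept cells was 2.96, 7.11 and 12.9 over 20 draws. Among cells of 1500 to 3000 UMIs it was 2.31, 5.12 and 10.7 at the 3 stages, among those of 3000 to 6000 it was 2.26, 7.05 and 14.2, and among those of 6000 to 12000 it was 3.67, 8.95 and 12.8. At P1, 1939 of 4440 barcodes were removed by the cell filter, and without any filter Slc12a5 stood at 207 CPM there and Slc12a2 at 30.3 CPM.

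Few cells held a UMI of both transporter genes, as few cells held one of Slc12a2. In cells thinned to 2000 UMIs in 1 draw, a Slc12a5 UMI was found in 10.5% of E16.5 cells (95% Clopper-Pearson interval 9.48 to 11.5), 23.0% of P1 cells (21.1 to 25.0) and 38.4% of P5 cells (36.5 to 40.4). Before thinning the shares were 27.3%, 38.9% and 58.2%. Slc12a2 was found in 3.90%, 4.21% and 3.19% of thinned cells, and both genes in 0.526%, 0.930% and 1.19%. The product of the shares of both genes is 0.408%, 0.970% and 1.23% at the 3 stages, beside those measured. A cell type that should lack Slc12a5 was almost missing from the sort, with 8 P5 cells of glial or vessel markers, so no background share of cells with a UMI from free RNA could be given.

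**Figure D3:**
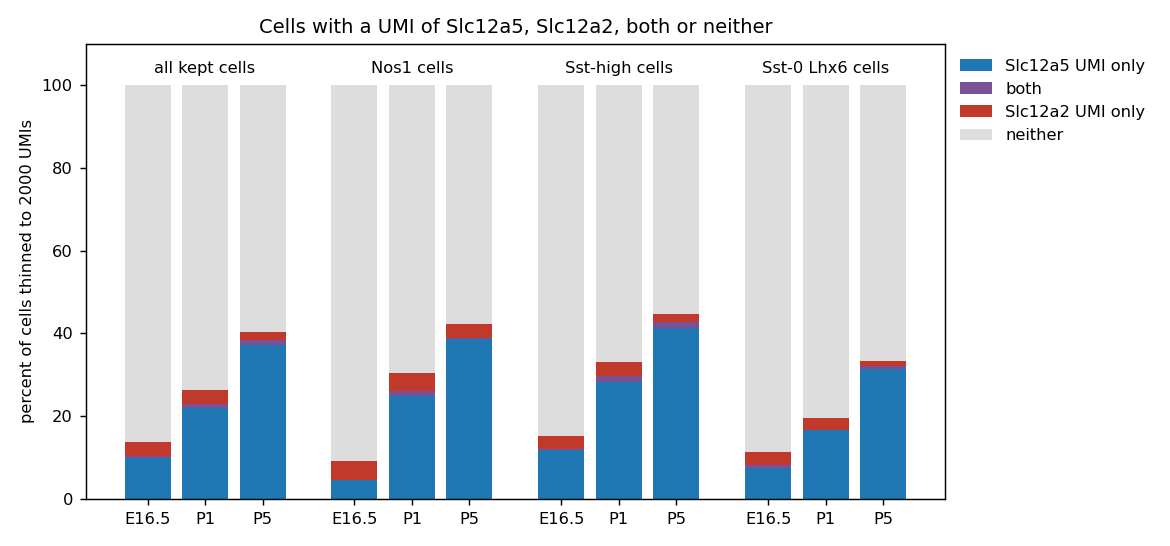
Percent of cells (vertical axis, from 0) with a UMI of Slc12a5 only, of both, of Slc12a2 only or of neither, after each cell was thinned to 2000 UMIs in 1 draw, by stage within all kept cells and 3 gates. Cells with Slc12a5 only make up 9.93%, 22.1% and 37.2% of all kept cells from the earliest to the latest stage, and cells with both never exceed 1.53% in any bar.

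Slc12a5 was lower in both the Nos1 and the Sst-0 Lhx6 cells than in the Sst-high cells of every library. It stood at 40.4 CPM in Nos1 cells, 78.3 CPM in Sst-high cells and 46.2 CPM in Sst-0 Lhx6 cells at E16.5. At P1 the levels were 172, 204 and 107 CPM, and at P5 they were 229, 273 and 205 CPM. Sst-high cells were the highest of the 3 gates at every stage. The level in Nos1 cells was 0.516 times that in Sst-high cells at E16.5 (0.329 to 0.772), 0.842 times at P1 (0.742 to 0.955) and 0.837 times at P5 (0.750 to 0.931). In Sst-0 Lhx6 cells it was 0.590 times (0.501 to 0.692), 0.524 times (0.446 to 0.614) and 0.748 times (0.668 to 0.837). Lhx6 cells with 1 to 4 Sst UMIs lay between the Sst-0 and the Sst-high cells in each library, at 53.4, 128 and 247 CPM.

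The E16.5 differences between gates depended on how the gates were drawn. With at least 2 Nos1 UMIs required, which left 29 cells at E16.5, the log2 difference of Nos1 from Sst-high cells for Slc12a5 was -0.31 in place of -0.94. With gates drawn on counts thinned to 2000 UMIs, the difference of Sst-0 Lhx6 from Sst-high cells over 20 draws was -0.50 at E16.5 in place of -0.75, with single draws from -0.85 to -0.16, and -1.12 at P1 and -0.48 at P5 against -0.92 and -0.42. The Sst-high cells were the deeper ones, with medians of 6457, 4557 and 5543 UMIs against 4980, 3117 and 3316 UMIs in the Sst-0 cells. With the original gates and counts thinned in 1 draw, 12.1% of Sst-high and 8.25% of Sst-0 cells held a Slc12a5 UMI at E16.5, with intervals of 10.7 to 13.7 and 6.32 to 10.5.

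The summed markers of immaturity were lowest in the Sst-high cells, where Slc12a5 was highest, in every library. They were highest in the Sst-0 Lhx6 cells in every library. At E16.5, however, Slc12a5 stood lowest in Nos1 cells, at 40.4 CPM (25.9 to 60.1) against 46.2 CPM (39.6 to 53.5) in Sst-0 cells, with overlapping intervals. Igfbpl1, Cxcr4, Sox11 and Dcx summed to 5812, 4063 and 1543 CPM in Sst-0 Lhx6 cells, against 4468, 2631 and 806 CPM in Sst-high cells and 4736, 2728 and 1137 CPM in Nos1 cells. When E16.5 cells were split by a UMI of Igfbpl1, a gene of newborn migrating neurons, Slc12a5 stood at 54.8 CPM in the 2054 cells with it and 79.6 CPM in the 1898 cells without it, or 0.688 times as high (0.623 to 0.759). Slc12a2 stood at 19.5 and 17.9 CPM (1.09-fold, 0.901 to 1.31), and the ratio of both genes at 2.81 and 4.44, or 0.633 times as high (0.514 to 0.779). With the same split Slc12a5 was 0.859 times as high at P1 (0.764 to 0.963) and 0.818 times at P5 (0.630 to 1.05), and the transporter ratio was 0.812 times as high at P1 (0.595 to 1.11) and 0.854 times at P5 (0.366 to 1.99), with intervals of the ratio that included 1 at both stages. The split also differed in its share of Nos1 cells. They were 2.29% of cells with Igfbpl1 and 1.05% of those without it at E16.5. At P1 the shares were 32.4% of 639 cells and 12.2% of 1862, and at P5 43.4% of 83 and 17.6% of 2897. The part of the immaturity markers in the differences between gates was not tested, nor that of the Nos1 cells in the split.

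In CPM, Stk39 was lower in Sst-0 Lhx6 than in Sst-high cells at E16.5 and P1 but not at P5, and the E16.5 and P1 differences were smaller in thinned counts. At E16.5 it stood at 21.9 CPM in Nos1 cells, 21.7 CPM in Sst-high cells and 11.0 CPM in Sst-0 Lhx6 cells. At P1 the levels were 19.8, 37.6 and 20.2 CPM, and at P5 they were 39.7, 50.6 and 59.1 CPM. The intervals of Nos1 and Sst-high cells overlapped at E16.5, those of Nos1 and Sst-0 cells at P1, and those of Sst-0 and Sst-high cells at P5, so these neighbours have no order. The level in Sst-0 cells was 0.509 times that of Sst-high cells at E16.5 (0.360 to 0.704), 0.536 times at P1 (0.361 to 0.774) and 1.17 times at P5 (0.931 to 1.46), and within the Sst-0 gate P5 was 5.36-fold E16.5 (3.74 to 7.82). In Nos1 cells the level was 0.526 times that of Sst-high cells at P1 (0.362 to 0.748), with intervals including 1 at E16.5 and P5. With gates on thinned counts the log2 difference of the Sst-0 from the Sst-high cells over 20 draws was -0.36, -0.51 and 0.55 from the earliest to the latest stage, in place of -0.91, -0.87 and 0.22. Single draws ran from -0.83 to 0.10, from -1.06 to 0.03 and from -0.07 to 1.32, and so crossed 0 at each stage. With the original gates and counts thinned in 1 draw, 3.13% of Sst-0 (1.97 to 4.70) and 3.71% of Sst-high cells (2.89 to 4.67) held a Stk39 UMI at E16.5. At P1 the shares were 6.02% (3.85 to 8.90) and 6.30% (4.50 to 8.55), and the intervals overlapped at both stages.

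The WNK genes differed less. Wnk1 was 1.18 times as high in Sst-0 Lhx6 as in Sst-high cells at E16.5 (1.06 to 1.31) and 1.24 times at P1 (1.07 to 1.43), and Wnk2 1.16 times (1.02 to 1.32) and 1.26 times (1.05 to 1.5). At P5 both intervals included 1. In Nos1 cells at P5, Wnk2 was 0.703 times as high as in Sst-high cells (0.577 to 0.851) and Wnk3 1.26 times (1.03 to 1.54). Slc12a2 had intervals that included 1 in all 6 comparisons of gates, with ratios from 0.670 to 1.49.

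Past 2-fold between Nos1 and Sst-high cells, 1 of the 7 genes was higher at E16.5 and the same 1 at P1, where 5.69% and 3.61% of all genes were, and this was Slc12a7 on 2 against 12 and 6 against 4 UMIs, with intervals that included 1. It did not reach 10 UMIs in this comparison at P5, where 0 of the other 6 were past 2-fold and 4.55% of genes were higher. None of the 7 was past 2-fold lower, where 8.90%, 3.85% and 6.60% of genes were. Between Sst-0 Lhx6 and Sst-high cells, 7 genes reached 10 UMIs at E16.5 and 6, without Slc12a7, at P1 and at P5. None of these was past 2-fold at any stage, where 1.22%, 2.16% and 2.90% of genes were higher and 4.85%, 7.92% and 4.23% lower.

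**Figure D4:**
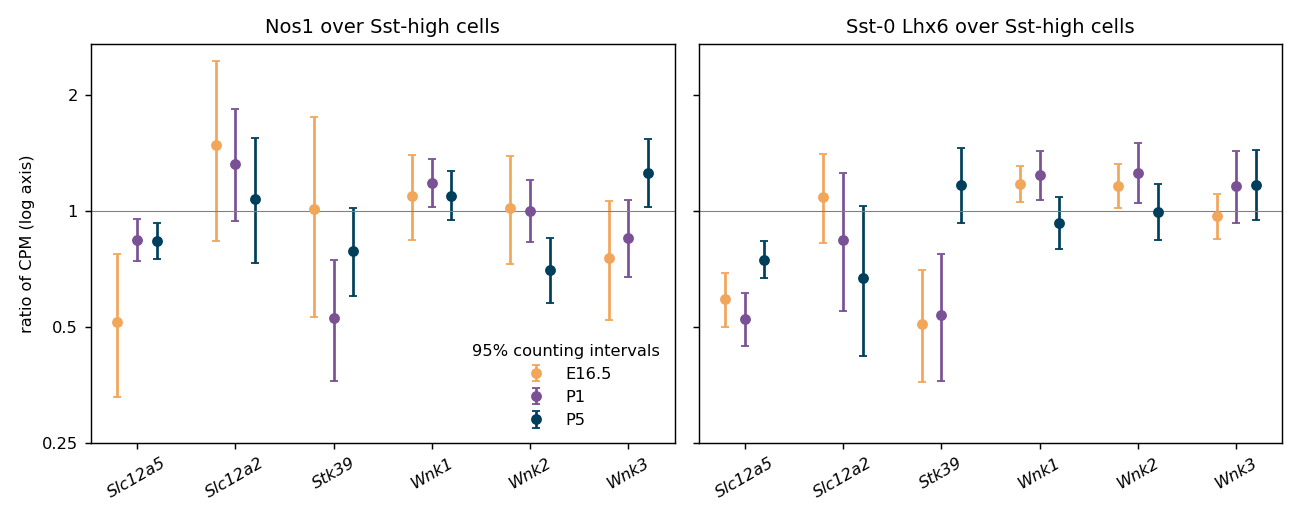
Ratio of CPM (vertical log axis) of Nos1 cells (left) and Sst-0 Lhx6 cells (right) over Sst-high cells for 6 of the 7 genes at 3 stages, with 95% counting intervals, Slc12a7 being left out for its few UMIs. Slc12a5 lies below 1 in all 6 comparisons, from 0.516 to 0.842, and Stk39 goes from 0.509 to 1.17 in the right panel.

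Within the Lhx6 cells without Nos1, those with at least 2 Reln and no Tac1 UMIs (Reln marks many Martinotti cells, MCs) were set against those with at least 2 Tac1 and no Reln UMIs. At P5 Slc12a5 stood at 289 CPM in 801 Reln cells and 158 CPM in 68 Tac1 cells, or 1.83-fold (1.40 to 2.42). At E16.5 the ratio was 1.47 (0.930 to 2.47) and at P1 1.33 (0.987 to 1.85), both with intervals that included 1. Slc12a2 rested on 11, 5 and 2 UMIs in the Tac1 cells, so that the transporter ratio there, 28.5 at P5 (7.54 to 241), was barely constrained.

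Other genes of chloride handling came from a list, of which 30 genes are reported. Between P5 and E16.5 over all kept cells, 28 passed the count minimum and 12 were past 2-fold higher and 2 lower, with a median log2 difference of 0.61 against 0.09 for all genes. Between P1 and E16.5, 3 of 27 were higher and 3 lower (median 0.48), and between P5 and P1, 2 of 27 were higher and 1 lower (median 0.25). The shares of all genes past 2-fold higher were 16.9%, 10.6% and 7.64% in these comparisons, and those past 2-fold lower 10.8%, 2.91% and 9.03%. The list was chosen with earlier results known and is given in part, so its counts are not read as an excess over these shares.

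Of the sodium pump subunits, which build the gradients that NKCC1 uses, the 2 reported were past 2-fold higher at P5 than at E16.5. Atp1b1, a beta subunit, stood at 323, 944 and 1859 CPM, and Atp1b2, another beta subunit, at 31.9, 63.8 and 76.0 CPM. Over all kept cells both were higher at each later stage. In Nos1 cells only Atp1b1 was past 2-fold higher at P5 than at E16.5. Both were past 2-fold lower in Nos1 than in Sst-high cells at P5, where 6.60% of all genes were. Among other chloride and bicarbonate genes, 5 of 8 were past 2-fold higher at P5 than at E16.5, where 16.9% of all genes were, namely the bicarbonate transporters Slc4a3, Slc4a8 and Slc4a10, the endosomal exchanger gene Clcn3 and Car7. Slc4a10 stood at 8.57, 38.4 and 48.2 CPM, and Car7, a carbonic anhydrase of neurons, at 1.14, 1.46 and 4.42 CPM. The chloride channel gene Clcn2 stood at 5.93, 9.85 and 2.56 CPM, and P5 was past 2-fold lower than P1.

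Of 8 kinase partners and regulators, 3 were past 2-fold higher at P5 than at E16.5, where 16.9% of all genes were: Wnk4, Cab39l and Klhl3. Cab39l, whose product binds and activates SPAK and OSR1, stood at 9.62, 16.4 and 26.2 CPM, and Klhl3, whose product takes WNK kinases to degradation, at 11.3, 23.3 and 36.9 CPM. Wnk4 held 6, 14 and 23 UMIs only. The related genes differed in pattern. Oxsr1 stood at 20.3, 37.9 and 30.8 CPM, and Cab39 at 142, 124 and 90.7 CPM. Oxsr1 was thus close to Stk39 at E16.5 and P1 and below it at P5.

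Of the 5 other SLC12 genes reported, 2 passed the count minimum for P1 over E16.5, 3 for P5 over P1 and 3 for P5 over E16.5. None that passed was past 2-fold over all kept cells. The shares of all genes were 10.6%, 7.64% and 16.9% higher and 2.91%, 9.03% and 10.8% lower. Slc12a1 and Slc12a3 passed in no stage comparison, so no call could be made for them. Slc12a4, which encodes KCC1, stood at 1.79, 1.55 and 1.16 CPM. The kidney transporters Slc12a1 and Slc12a3 held 0, 1 and 3 UMIs and 4, 5 and 4 UMIs. Among 7 genes known to act on KCC2 or its gene, Rest, a repressor of neuronal genes, stood at 21.8, 7.84 and 3.96 CPM and Usf1, whose product binds E-boxes, at 36.7, 10.6 and 8.54 CPM, both past 2-fold lower at P1 and P5 than at E16.5. Egr4, an activator of the KCC2 gene, held 4, 11 and 27 UMIs, and Epb41l1, a cytoskeletal protein gene, stood at 124, 207 and 319 CPM, both past 2-fold higher at P5. Ckb, a creatine kinase gene, stood at 369, 139 and 195 CPM, with P1 past 2-fold lower than E16.5. Neto2 stood at 195, 321 and 349 CPM and Ntrk2, the BDNF receptor gene, at 369, 612 and 504 CPM. Over all kept cells, Neto2 and Ntrk2 were past 2-fold in no stage comparison. Within gates, Neto2 was past 2-fold higher at P5 than at E16.5 in Sst-high cells. Ntrk2 was past 2-fold higher at P1 and P5 than at E16.5 in Nos1 cells. Neto2 was also past 2-fold lower in Nos1 than in Sst-high cells at P1 and P5.

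**Figure D5:**
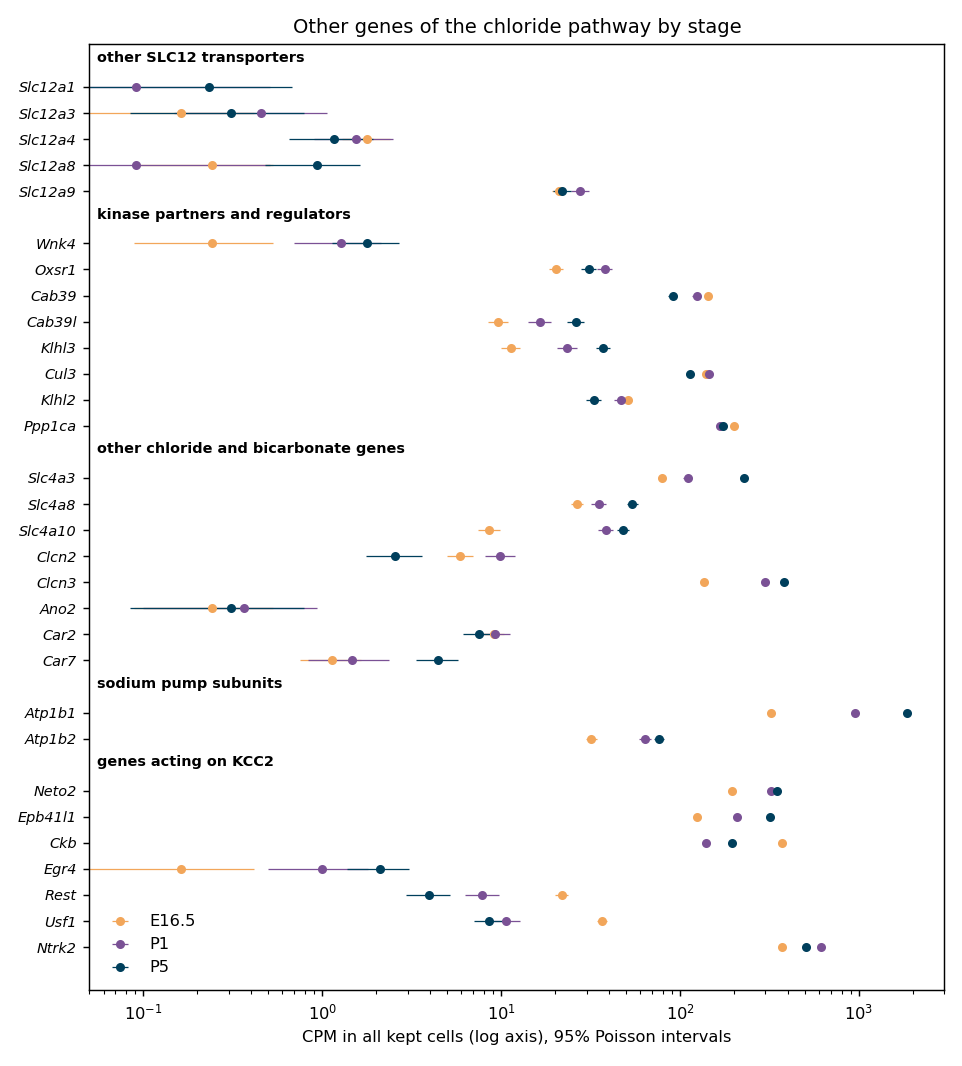
CPM over all kept cells (horizontal log axis) of 30 other genes of the chloride pathway in 5 groups, coloured by stage, with 95% Poisson intervals, where Slc12a1 at E16.5 has 0 UMIs and no point. The 2 sodium pump subunits lie to the right at P5, with Atp1b1 going from 323 to 1859 CPM, and Rest and Usf1 lie to the left.

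The gates shared part of this. Between P5 and E16.5, of the 30 genes 12 of 25 that passed the count minimum were past 2-fold higher in Sst-high cells, where 17.7% of all genes were, 8 of 19 in Nos1 cells, where 18.2% were, and 8 of 23 in Sst-0 Lhx6 cells, where 19.9% were. Past 2-fold lower were 3 of 25, 2 of 19 and 3 of 23, where 12.6%, 14.8% and 15.2% of all genes were. Of the members, Slc12a5 was past 2-fold higher in each gate (3.49-fold in Sst-high, 5.66-fold in Nos1 and 4.43-fold in Sst-0 cells). Stk39 was past it in the Sst-high cells (2.33-fold) and the Sst-0 cells (5.36-fold), and in Nos1 cells it was 1.82-fold (1.00 to 3.56).

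The genes whose levels ran most like Slc12a5 over 9 points, the 3 gates in 3 libraries, were Myo16, Kcnb2, Nptxr, Ptpn5 and Fam219a, with Pearson r of log2(CPM + 1) from 0.983 to 0.993 among 5583 genes with at least 50 CPM in at least 1 point. Myo16 stood at 12.3 CPM in Sst-0 cells at E16.5 and 114 CPM in Sst-high cells at P5. For Slc12a2 they included Cttnbp2nl, Arpp21, Ahcyl2 and Saraf, with r from 0.868 to 0.907, on a range of 13.6 to 30.0 CPM for Slc12a2 itself. These are descriptions: the 9 points share 3 libraries, and the points of a library share their stage and preparation.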

How the data were processed

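The data were 10x Genomics 3′ single-cell RNA counts from 3 libraries, 1 per stage, mapped to stages by the age in the labels. The authors deposited UMI counts per gene and cell barcode as filtered matrices made with Cell Ranger, whose aligner is STAR, on GRCm38, per the labels and the study's methods. How strand and annotation entered the counting is not given in the sources used here.

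Barcodes with more than 700 detected genes and under 10% mitochondrial UMIs were kept, and doublets were left in. For a library or gate, a gene's UMIs were added up and divided by all UMIs of the same cells (CPM), with exact Poisson intervals at 95%. Ratios of counts were given exact conditional intervals and ratios of such ratios a log-scale normal interval. Differences were log2((CPM + 1)/(CPM + 1)) for genes that reached 10 UMIs in both groups together, read against the share of all genes past 2-fold. Fold values in the text are plain ratios of CPM. Intervals and floors of 3 counts cover counting error only, and no test between libraries was run. The gates, at 1 Nos1 UMI, 5 Sst UMIs and 1 Lhx6 UMI, came with the choice of the genes. Shares of cells were also taken after 1 random thinning of each cell to 2000 UMIs, and other thinned values over 20 such draws, which left out 337, 673 and 537 cells. Genes named were the 7 members, the genes of the pathway list, and the 5 most like Slc12a5 and Slc12a2, and some listed genes and motifs are not reported here, for a reason other than their values, with 30 list genes left. The members and lists were chosen with earlier results of these data known. Promoter windows came from RefSeq (GRCm38.p6) and matched 6 of the 7 genes, and gene positions came from GENCODE M21. The fold calls were run on Poisson counts simulated for P1 over E16.5, with 3-fold changes set only in genes of at least 200 UMIs over both libraries. Of 200 changed genes, 198 were recovered at the 2-fold call among 14861 genes. No gene of few UMIs was changed and no difference between libraries was simulated, so the run checks the calculation only. Python 3.11.15, numpy 2.4.6, scipy 1.17.1, pandas 2.3.3 and matplotlib 3.10.9 were used. Alternatives changed the cell filter, the scaling, the thinning, the pseudocount, the gates and the fold.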

Additional observations from a re-analysis of the deposited data

How the results depend on the processing

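The ratio of Slc12a5 to Slc12a2 was in the order E16.5, P1, P5 in 32 of 32 pairs of a gate and an alternative. Of its 96 values under the alternatives, 87 stayed within the counting interval reported. The others were lower: at E16.5 over all kept cells 3.11 as the mean of per-cell CPM, 3.1 with over 1000 genes and under 5% mitochondrial UMIs, 2.96 thinned (20 draws) and 3.08 without the 5% of cells with most UMIs, in Sst-high cells 3.63, 3.54, 3.57 and 3.60 in the same order, and at P1 over all kept cells 6.02 as the mean of per-cell CPM. For Slc12a5, the log2 difference of P5 from E16.5 was 2.04 by per-cell means, 2.06 with the stricter filter, 2.02 thinned, 2.07 without the deepest cells and 1.71 with median-of-ratios size factors. That of P1 from E16.5 was 1.03 with size factors and 1.54 without a cell filter, and that of P5 from P1 was 0.69 by per-cell means, 0.68 with the stricter filter, 0.68 with size factors, 0.77 thinned, 0.70 without the deepest cells and 0.33 without a filter. For Slc12a2, P1 over E16.5 was 0.033 with size factors, 0.61 without a filter and -0.000861 thinned, and P5 over P1 was -0.56 without a filter. For Stk39, P5 over E16.5 was 1.24 with size factors and 1.24 with a pseudocount of 5 CPM, P1 over E16.5 was 0.51 with size factors and 0.38 with the stricter filter, and P5 over P1 was 1.09 with the stricter filter, past 2-fold. Between gates, Slc12a5 in Nos1 over Sst-high cells was -0.31 at E16.5 with at least 2 Nos1 UMIs, -0.52 at P1 without a filter, -0.44 with the stricter filter and -0.45 thinned, and -0.50 at P5 by per-cell means. In Sst-0 Lhx6 over Sst-high cells it was -0.46 at E16.5 by per-cell means, -0.52 with the stricter filter, -0.50 thinned and -0.52 without the deepest cells, -1.45 at P1 with the stricter filter, and -0.73 at P5 by per-cell means. Stk39 thinned in Sst-0 Lhx6 over Sst-high cells was -0.36 at E16.5 and 0.55 at P5. The cause of these shifts was not tested. That of Slc12a2 between P1 and E16.5, thinned, was the 1 difference whose interval excluded 0 and whose sign turned. The number of genes past the fold ranged from 756 to 3653 higher and 223 to 1546 lower for P1 over E16.5, 552 to 2775 and 734 to 3319 for P5 over P1, and 1560 to 4427 and 1065 to 3249 for P5 over E16.5. The median gene for P1 over E16.5 stood at -0.04 with size factors in place of 0.18. Leaving out cells of the excitatory, Meis2 and non-neuronal gates, requiring Lhx6 in Nos1 cells, the depth bins and the Igfbpl1 split were chosen after seeing the data. No paired analysis was possible because each stage had 1 library, and for the same reason no library could be left out. The ratio in Nos1 cells rests on 16 to 59 Slc12a2 and 24 to 449 Slc12a5 UMIs.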
